A study of Mus musculus with 8 samples.

Results

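Potassium channels set the resting potential of neurons, end action potentials and tune how often a neuron fires. Voltage-gated Kv channels open on depolarisation, calcium-activated channels follow calcium entry, inward rectifiers conduct near rest, and two-pore-domain channels carry leak current, while Kv beta subunits and KChIP proteins bind to Kv channels and adjust their gating or delivery to the membrane. In the striatum, Kv4 channels, Kv1 channels and strong inward rectifiers are known for keeping the projection neurons quiet at rest and for delaying their first spike.

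The 42 genes described here are potassium channel subunits and their auxiliary proteins, taken as all spots other than controls whose gene name in the array files was one of a fixed set of names. They had 59 probes in 86 spots, of 39429 probes on the array. The RNA came from the striatum of 8 adult male C57Bl/6j mice. Of these 4 were wildtype and 4 were Brd2+/-, carrying a gene-trap insertion in 1 copy of Brd2, which encodes a BET protein that binds acetylated histones. All the mice were bred from heterozygous parents at generation 7 of backcrossing, which puts their background at 99% C57Bl/6J on average per the labels, and no age beyond adult is stated. Each Agilent array held 2 mice of the same genotype, one labelled with Cy3 (replicates 1 and 3) and one with Cy5 (replicates 2 and 4), so each genotype came from 2 of the 4 arrays and genotype varied only between arrays. Values are normalised log2 signals, 1 log2 unit being a 2-fold difference.

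Per sample, the median spot had 3.75 to 10.5 times the signal of its local background, and 41.6% to 63.1% of the probes stood well above it. The labels name the tissue both as striatum and as heart left atrium. All 15 markers of striatal projection neurons were well above background in all 8 samples, against 2 of 10 markers of atrial heart muscle, of which Myl7 and Actc1 were above it in none. The brighter of the 2 probes for Brd2 read 11.46 ± 0.64 in wildtype and 11.74 ± 0.07 in heterozygous samples (SD, n = 4 each; two-sided exact permutation over samples, p = 0.429). The dimmer probe read 7.13 ± 0.26 and 8.01 ± 0.18 (SD, n = 4 each; exact permutation p = 0.0286 over samples and 0.333 over arrays, each the smallest that its design can give). In these values neither probe was lower in the samples labelled heterozygous, but the brighter one turned to −0.032 with the scanner's processed signals and to −0.27 without the array of wildtype replicates 1 and 2. Where the trap lies relative to these probes is unstated, so they do not check the genotypes.

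Of the 42 genes, 32 were well above background in all 8 samples by at least 1 probe, which is 76.2% against 42.5% of all 30570 genes and unnamed transcripts on the array. Kcnb2, Kcnh7, Kcnn1 and Kcnj6 were too dim to test. Kcna1, Kcnab1, Kcnd2, Kcnip3, Kcnh3, Kcnj10, Kcnj4 and Kcnk1 were bright, but their only bright probe had a spot that the scanner software marked as not uniform in 1 or more samples, so they were left out of the test. Such marks were most frequent on bright probes, with 15.6% of readings in the brightest 10% of probes and at most 0.304% in any band of 10% below the median brightness. The remaining 30 genes were tested, and the 8 marked ones are given from a second fit in which marked spots were kept.

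No channel gene passed the test between the genotypes, which used limma with the dye as a term and the array as a random block. With each gene read by its brightest tested probe, the lowest adjusted p was 0.660 among the 30 genes tested. On the same reading, 0% of 15094 genes on the array passed. A dimmer tested probe of Kcnma1, described below, had an adjusted p of 0.501. By the brightest tested probe, 15 channel genes read higher in heterozygous samples and 15 lower (46.7% of all genes were higher), with a median difference of −0.02 log2 units beside −0.03 over all genes. None of the 30 had an unadjusted p below 0.05, where 8.14% of all genes did. The groups did not overlap for 2 of them, Kcnc1 and Kcnk9, against 17% of all genes. At least 1.5-fold separated the genotypes in 4 of 30, against 16.4% of all genes, and the median size of the difference was 0.36 against 0.26. With marked spots kept, 22 of 38 genes read higher and 16 lower, the median was 0.09 beside −0.02 over all genes, and 1 gene, Kcna1, had an unadjusted p below 0.05 (9% of all genes, and 4.47% with the higher value in heterozygous samples). In that fit the groups of 2 of the 38, Kcna1 and Kcnk9, did not overlap, against 18.4% of all genes. The intervals below treat the mice of an array as adding degrees of freedom, although genotype varied only between arrays, which can make them too narrow. RNA from a whole piece of tissue cannot tell fewer cells of a type from less RNA per cell.

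**Figure D1:**
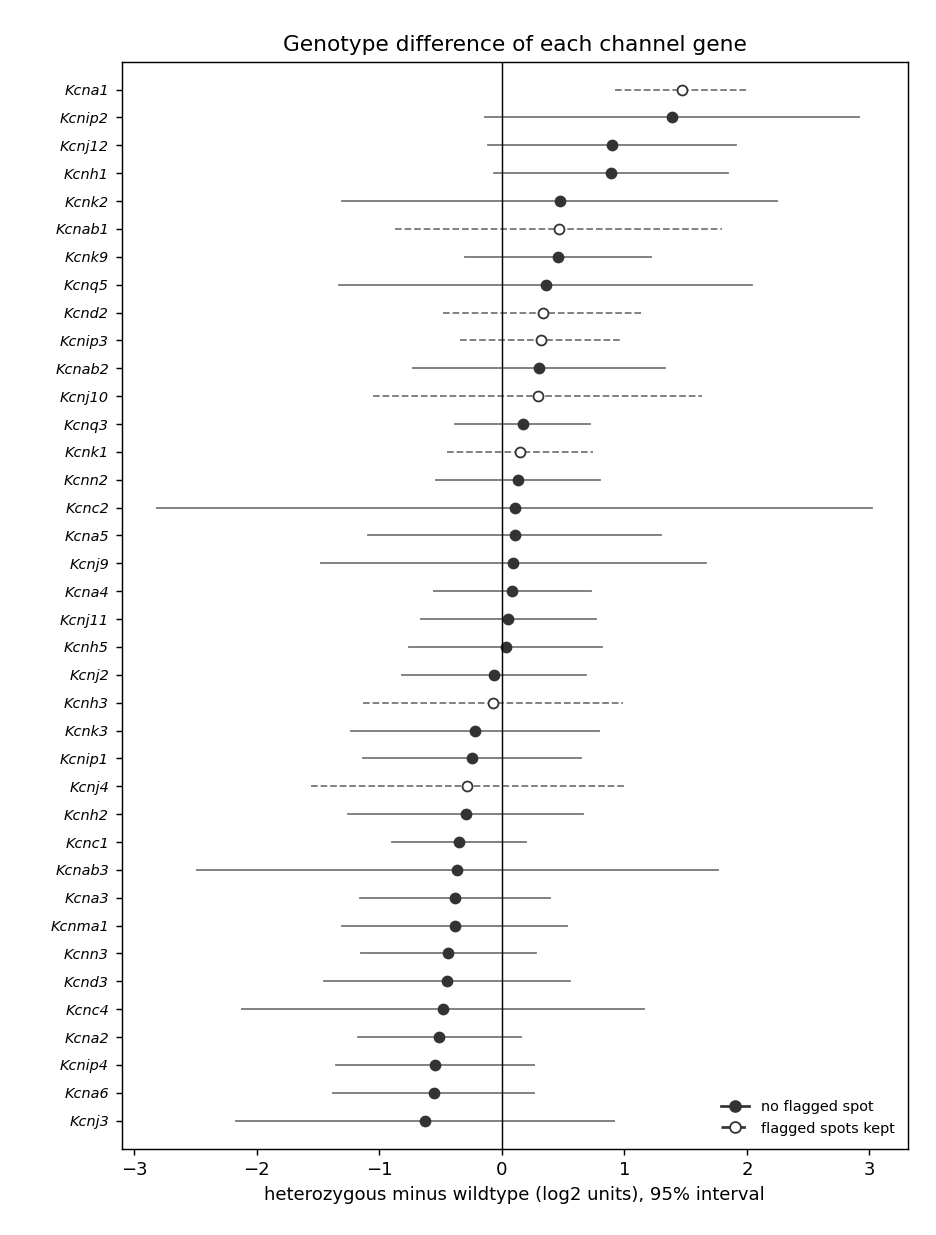
Difference in log2 signal, heterozygous minus wildtype, for the 38 channel genes that could be fitted, with 95% intervals (filled points, no marked spot; open points with dashed intervals, marked spots kept). Kcna1 stands at 1.47 and Kcnip2 at 1.39, and every interval except that of Kcna1 includes 0.

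The signal of a probe depends on its sequence as well as on its transcript, so the order of the genes is an order of probe brightness. Among the 13 genes with several probes, the probes of 1 gene lay 0.17 to 6.61 log2 units apart, with a median of 2.21. Of the 59 probes, 39 stood well above background in every sample and 6 in no sample, the 6 being both probes of Kcnh7, the probe of Kcnn1 and the dimmest probes of Kcnd3, Kcnip1 and Kcnq5. By the brightest probe and the mean over all 8 samples, 7 genes stood at or above 12 log2 units: Kcnj4, Kcnab1, Kcnip3, Kcnd2, Kcnh3, Kcna6 and Kcna1. They encode a strong inward rectifier, a Kv beta subunit, a KChIP protein, the main Kv4 subunit of neurons, an ELK channel and a pair of Kv1 subunits. Between 10 and 12 log2 units stood 8 more (Kcnk1, Kcnip4, Kcnj10, Kcnma1, Kcnd3, Kcnc1, Kcna4 and Kcnip2), and 17 stood between 8 and 10. The 10 below 8 log2 units were Kcna3, Kcnab2, Kcnb2, Kcnh1, Kcnh7, Kcnn1, Kcnj2, Kcnj3, Kcnj6 and Kcnk9. The median over the 42 genes was 9.46, beside 7.39 over all genes read in the same way.

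**Figure D2:**
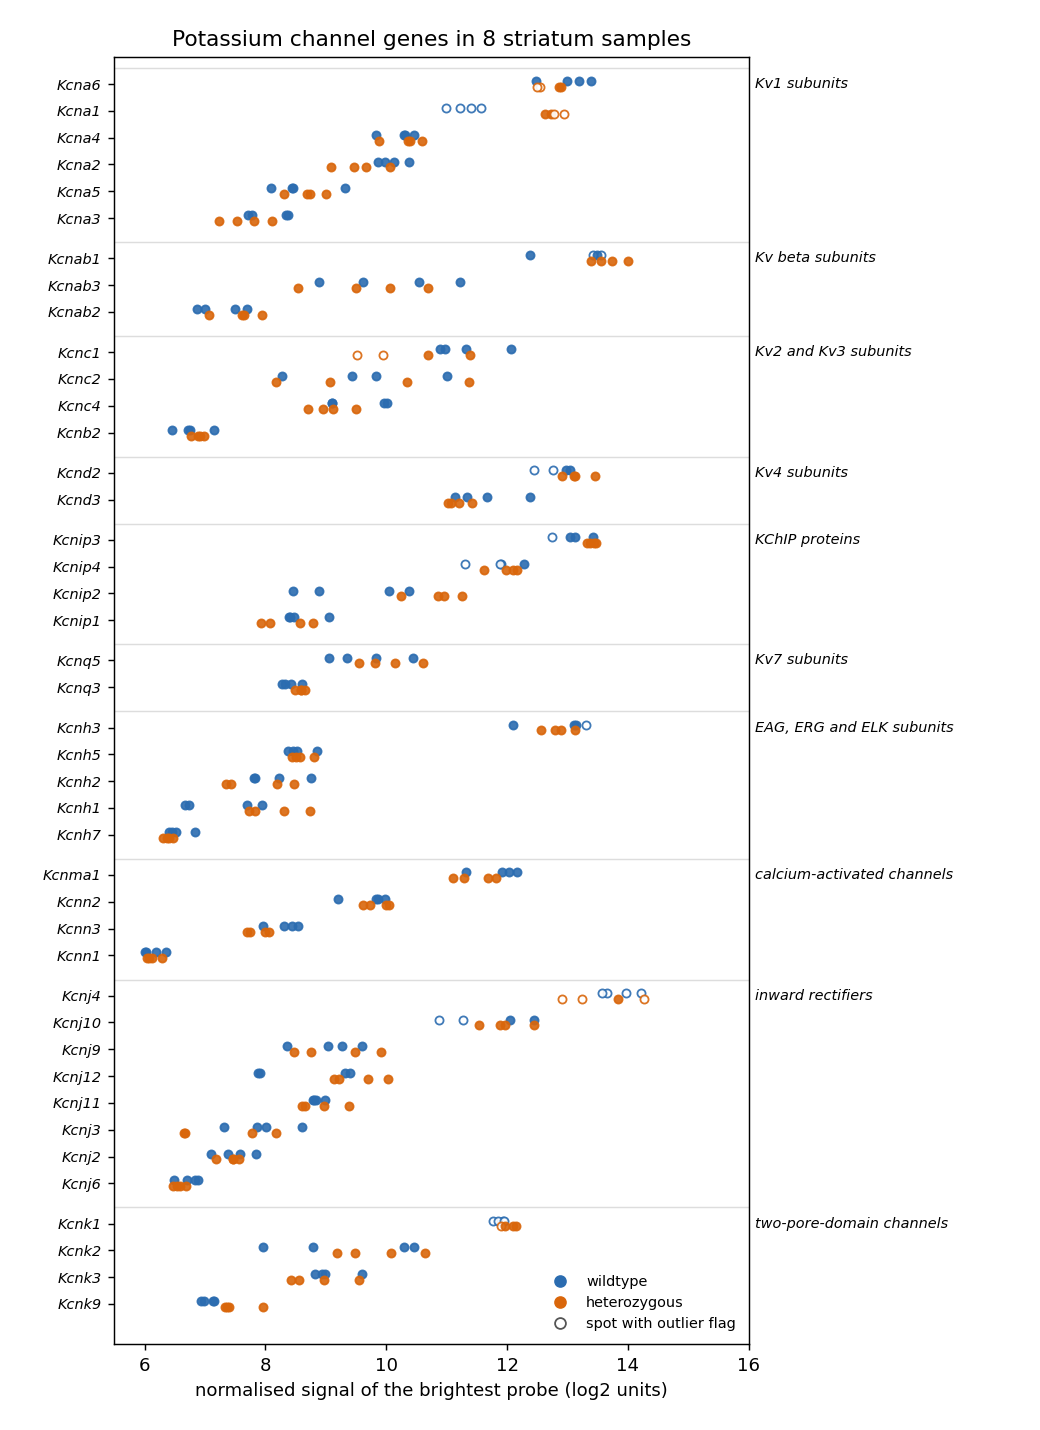
Normalised log2 signal of the brightest probe of each of the 42 channel genes in each sample, by channel class (1 point a sample; open points, spots marked as not uniform). The brightest probes, such as those of Kcnj4 and Kcnip3, lie above 12 log2 units in all samples, and in most genes the 2 genotypes overlap.

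The probes of Kcna1, Kcnip2 and Kcnma1 and a Kcnip4 probe are shown here, since what each reads bears on the values below. Other probes with large differences, such as that of Kcnj12, are not printed. Each is 60 bases long, and coordinates are those of the array files on mm9. For Kcna1 and Kcnma1, whose exons and untranslated regions were not looked up, only the first 30 bases are printed. The Kcnip2 and Kcnip4 probes read related stretches of 2 KChIP genes, and capitals mark their longest shared run, 8 bases. Over all probes of the 42 genes, the longest run shared with a probe of another of them was 7 to 10 bases. A run of 8 bases thus does not set these 2 probes apart.
Kcna1, minus strand, chr6:126586524-126586583: gcgcatagttttcatctatgcaattttact
Kcnip2, minus strand, chr19:45868494-45868553: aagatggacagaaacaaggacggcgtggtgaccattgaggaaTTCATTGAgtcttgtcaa
Kcnip4, minus strand, chr5:48782161-48787268, a probe that spans an intron: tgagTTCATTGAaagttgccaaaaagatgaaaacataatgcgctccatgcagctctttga
Kcnma1, 5′ probe, minus strand, chr14:24130916-24130975: tggtgatctgttctgcaaagctctgaaaac
Kcnma1, middle probe, minus strand, chr14:24126279-24126338: tgggtgggcagtcaatgtatacatgtaaat
Kcnma1, 3′ probe, minus strand, chr14:24118701-24118760: agattccttgatgcacatttctcttctttc

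Kv1 subunits form delayed-rectifier and low-threshold channels of axons. Kcna1, which encodes Kv1.1, had the largest difference among the 38 genes that could be fitted, each by 1 probe, on a probe left out of the test because of marked spots. It read 11.22, 10.99, 11.57 and 11.40 log2 units in wildtype samples and 12.73, 12.62, 12.94 and 12.78 in heterozygous samples. The 4 heterozygous values were all above the 4 wildtype values, and the samples of each genotype lay within 0.58 log2 units of one another. With marked spots kept, the difference was 1.47 (SE 0.24, 95% interval 0.92 to 2.02), which is 2.77-fold, with an unadjusted p of 0.000181 and an adjusted p of 0.211. By unadjusted p it was number 14 of 17527 genes in that fit. The spot was marked as not uniform in all 4 wildtype samples and in heterozygous replicates 3 and 4. The mean of its pixels was 0.984 to 1.25 times their median over the 8 samples, highest in wildtype replicate 2. The deposited value table, which uses the median pixel, gave a difference of 1.66 (unadjusted p = 0.00133, adjusted p = 0.439). The difference was smaller, at 0.89 (adjusted p = 0.999), with the scanner's processed signals, and 1.06 (adjusted p = 0.692) after removal of spatial trends.

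**Figure D3:**
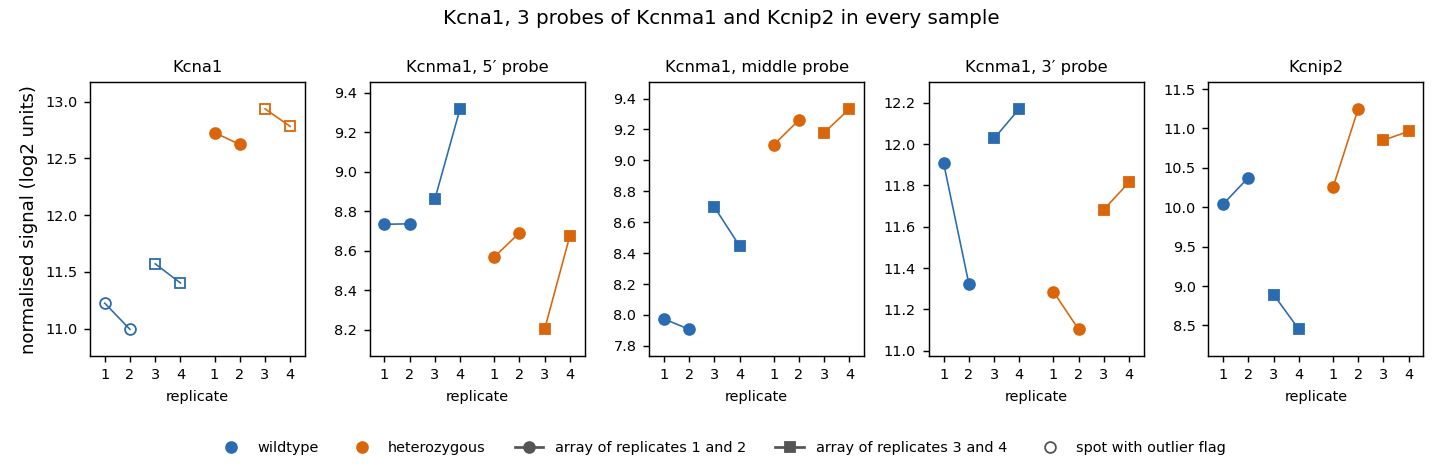
Normalised log2 signal in each sample of Kcna1, the 3 probes of Kcnma1 and Kcnip2 (circles, arrays of replicates 1 and 2; squares, arrays of replicates 3 and 4; lines join the mice of 1 array; open symbols, spots marked as not uniform). For Kcna1 and the middle Kcnma1 probe all heterozygous samples lie above all wildtype samples, while the wildtype Kcnip2 values of replicates 3 and 4 lie below all others.

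The other Kv1 subunits were tested without marked spots. Kcna2 (Kv1.2, the usual partner of Kv1.1) read 9.98, 10.13, 9.87 and 10.37 in wildtype and 9.09, 9.67, 9.47 and 10.07 in heterozygous samples, a difference of −0.51 (SE 0.29, unadjusted p = 0.116). The highest heterozygous value lay among the wildtype values. Kcna6 (Kv1.6) was read by 3 probes, of which the 2 brighter ones were lower in the mean of the heterozygous samples. Its brightest probe, with marks in heterozygous replicates 1 and 2, read 12.99, 12.49, 13.20 and 13.39 in wildtype and 12.54, 12.49, 12.88 and 12.86 in heterozygous samples. With marked spots kept, it differed by −0.32 (SE 0.38). Its brightest tested probe differed by −0.56 (SE 0.36, unadjusted p = 0.159), with 11.63 and 11.50 on the array of wildtype replicates 1 and 2, 10.39 and 10.65 on that of replicates 3 and 4, and 10.32 to 10.65 in heterozygous samples. Only the first wildtype array stood apart. The dimmest Kcna6 probe, at 6.58 to 7.32, differed by 0.08 (SE 0.33). Kcna3 (Kv1.3) read 8.38, 8.33, 7.77 and 7.71 in wildtype and 7.80, 8.11, 7.23 and 7.53 in heterozygous samples, a difference of −0.38 (SE 0.34, unadjusted p = 0.292), with both genotypes lower on the arrays of replicates 3 and 4. Kcna4 (Kv1.4, an inactivating subunit) differed by 0.09 (SE 0.28), and the 2 probes of Kcna5 (Kv1.5) by 0.10 (SE 0.53) and 0.66 (SE 0.66).

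Kv beta subunits bind Kv1 channels, and 3 were on the array. Kcnab1, the brightest of its class, read 13.55, 13.42, 13.48 and 12.39 in wildtype and 13.74, 14.003, 13.56 and 13.38 in heterozygous samples, with marks in wildtype replicates 1 and 2. Wildtype replicate 4 was low, the groups overlapped, and the difference with marked spots kept was 0.46 (SE 0.59). Kcnab2 differed by 0.30 (SE 0.45) near the background, at 6.87 to 7.95. Kcnab3 differed by −0.36 (SE 0.94), and its arrays lay far apart, as described below.

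Kv3 subunits give the fast delayed rectifier of fast-spiking neurons, and Kv2 subunits a slower one. Kcnc1 (Kv3.1) was read by 3 probes, all lower in the mean of the heterozygous samples. The tested probe read 10.76, 10.52, 10.68 and 10.58 in wildtype and 10.45, 10.34, 10.15 and 10.22 in heterozygous samples. These groups did not overlap, at a difference of −0.35 (SE 0.24, unadjusted p = 0.186, adjusted p = 0.802). The brightest Kcnc1 probe, marked in heterozygous replicates 1 and 2, read 10.97, 10.88, 11.32 and 12.06 in wildtype and 9.51, 9.95, 10.70 and 11.39 in heterozygous samples, a difference of −0.92 (SE 0.54) with marked spots kept. The last probe, marked in wildtype replicate 4, differed by −0.46 (SE 0.75). Kcnc2 (Kv3.2) differed by 0.11 (SE 1.29) and Kcnc4 (Kv3.4) by −0.48 (SE 0.73). Kcnb2 (Kv2.2) was well above background in 1 wildtype and 2 heterozygous samples.

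Kv4 subunits carry the A-type current, and KChIP proteins are the calcium-binding partners that bring them to the membrane. Kcnd2 (Kv4.2) read 13.04, 12.98, 12.77 and 12.45 in wildtype and 13.11, 13.45, 12.91 and 13.12 in heterozygous samples, with marks in wildtype replicates 3 and 4. Only heterozygous replicate 3 fell among the wildtype values, and the difference with marked spots kept was 0.34 (SE 0.36). Kcnd3 (Kv4.3) differed by −0.45 (SE 0.44), with wildtype replicate 4 highest at 12.39 and the other 7 samples at 11.02 to 11.66.

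Kcnip2 (KChIP2), whose probe is printed above, had the largest difference among the tested genes. It read 10.04, 10.38, 8.89 and 8.45 in wildtype and 10.25, 11.25, 10.85 and 10.96 in heterozygous samples. The array of wildtype replicates 3 and 4 was low, and the values of the other wildtype array overlapped those of the heterozygous samples. The difference was 1.39 (SE 0.67, 95% interval −0.14 to 2.91), which is 2.62-fold, with an unadjusted p of 0.0694 and an adjusted p of 0.671. Without that low wildtype array it was 0.62, and without the other wildtype array 2.16.

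Kcnip3 (KChIP3, also known as calsenilin and DREAM) was the brightest KChIP. It read 13.42, 13.04, 13.13 and 12.74 in wildtype and 13.47, 13.44, 13.37 and 13.32 in heterozygous samples, with a mark in wildtype replicate 4. The heterozygous values lay close together, wildtype replicate 1 fell among them, and the difference with marked spots kept was 0.32 (SE 0.29). Kcnip4 gave opposite signs by probe. The probe printed above read 9.34, 9.34, 8.95 and 9.33 in wildtype and 8.997, 9.05, 8.08 and 8.65 in heterozygous samples, a difference of −0.55 (SE 0.36, unadjusted p = 0.159). The brighter one, marked in wildtype replicates 3 and 4, differed by 0.13 (SE 0.48) with marked spots kept. Kcnip1 differed by −0.24 (SE 0.39). Its probe was printed in 10 spots on each array, whose mean gave the value of a sample and whose SD within a sample was 0.24 to 0.48 log2 units.

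Kv7 subunits form the M-current, a brake on repetitive firing. Kcnq5 was the brighter of the 2 genes, at 9.35, 10.44, 9.84 and 9.05 in wildtype and 10.14, 10.60, 9.55 and 9.82 in heterozygous samples, with overlapping groups and a difference of 0.36 (SE 0.75). Its second tested probe read 7.08, 7.15, 6.47 and 6.16 in wildtype and 8.204, 8.14, 6.94 and 6.97 in heterozygous samples, a difference of 0.85 (SE 0.43, unadjusted p = 0.0776). That probe was well above background in 2 wildtype and 3 heterozygous samples. Kcnq3 differed by 0.17 (SE 0.24) within a narrow band of 8.28 to 8.65.

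Of the EAG, ERG and ELK subunits, Kcnh3 (an ELK channel of the forebrain) was the brightest, at 13.30, 13.11, 13.15 and 12.09 in wildtype and 12.89, 12.78, 13.12 and 12.56 in heterozygous samples, with a mark in wildtype replicate 1. Wildtype replicate 4 was lowest, and the difference with marked spots kept was −0.07 (SE 0.47). Kcnh1 (EAG1) had the lowest unadjusted p of the tested genes, each read by its brightest tested probe, at 0.0637, with an adjusted p of 0.660. It read 7.69, 7.93, 6.74 and 6.68 in wildtype and 8.30, 8.74, 7.73 and 7.83 in heterozygous samples, a difference of 0.89 (SE 0.42). In both genotypes the arrays of replicates 3 and 4 were the lower ones. Without the array of wildtype replicates 3 and 4 the difference was 0.34, and without the other wildtype array 1.44. It was 0.52 and 1.26 without the first and second heterozygous array, and 0.46 with the spatial trend removed. The probe was well above background in 2 wildtype and 3 heterozygous samples. Kcnh2 (ERG1) differed by −0.30 (SE 0.42) and Kcnh5 (EAG2) by 0.03 (SE 0.35), and neither probe of Kcnh7 was above background in any sample.

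Among calcium-activated channels, Kcnma1 (the BK channel) was the brightest, and its 3 probes did not move alike. The 3′ probe read 11.91, 11.32, 12.03 and 12.17 in wildtype and 11.29, 11.10, 11.68 and 11.82 in heterozygous samples, a difference of −0.39 (SE 0.41, unadjusted p = 0.368). The 5′ probe read 8.73, 8.74, 8.86 and 9.32 in wildtype and 8.57, 8.69, 8.203 and 8.67 in heterozygous samples, a difference of −0.38 (SE 0.31, unadjusted p = 0.256) with groups that did not overlap. The middle probe went the other way, with 7.97, 7.91, 8.70 and 8.45 in wildtype and 9.10, 9.26, 9.18 and 9.33 in heterozygous samples. All heterozygous values lay above all wildtype values, at a difference of 0.96 (SE 0.31, 95% interval 0.26 to 1.67), an unadjusted p of 0.0128 and an adjusted p of 0.501. Among probes, 8.05% of the 18393 tested had an unadjusted p below 0.05. The array files name a different transcript variant of Kcnma1 for each of the 3 probes, and which exon or untranslated region each lies in was not looked up. The opposite signs of these probes were not tested against each other.

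Small-conductance SK channels set the pause after a spike. Kcnn3 (SK3) read 8.45, 8.31, 8.54 and 7.96 in wildtype and 7.75, 7.69, 8.07 and 7.999 in heterozygous samples, a difference of −0.44 (SE 0.32, adjusted p = 0.815), with wildtype replicate 4 among the heterozygous values. Its second probe spans an intron (plus strand, chr3:89465136-89466660) and has this sequence, shown because 1 array stood apart on it.
Kcnn3, second probe: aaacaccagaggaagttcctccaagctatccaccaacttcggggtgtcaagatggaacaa
It read 10.01 and 10.06 on the array of wildtype replicates 1 and 2 and between 6.38 and 6.91 in the other 6 samples, so that the group means stood −1.82 apart, heterozygous minus wildtype. Both mice of that array were above background on it, with 1 of the other 6, so it entered no test. Kcnn2 (SK2) differed by 0.13 (SE 0.30), with an SD of 0.32 to 0.61 over its 10 spots within a sample. Kcnn1 (SK1) was above background in none.

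Inward rectifiers hold neurons and astrocytes near the potassium equilibrium potential. Kcnj4 (Kir2.3) had the brightest probe of all 42 genes. It read 13.96, 13.65, 14.21 and 13.57 in wildtype and 13.84, 14.26, 12.92 and 13.24 in heterozygous samples, with marks in every sample except heterozygous replicate 1. The groups overlapped, and the difference with marked spots kept was −0.28 (SE 0.56). Kcnj12 (Kir2.2) read 7.87, 7.92, 9.31 and 9.40 in wildtype and 9.13, 9.22, 9.70 and 10.03 in heterozygous samples, a difference of 0.90 (SE 0.45, unadjusted p = 0.0757). Here the array of wildtype replicates 1 and 2 was low, and without it the difference was 0.17, against 1.63 without the other wildtype array. Kcnj2 (Kir2.1) differed by −0.06 (SE 0.33).

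Kcnj10 (Kir4.1, the main rectifier of astrocytes) read 10.88 to 12.44 in wildtype and 11.53 to 12.44 in heterozygous samples, with marks in wildtype replicates 1 and 2 and a difference of 0.29 (SE 0.60) with marked spots kept. The 10 astrocyte markers averaged 10.40 to 11.42 in wildtype and 10.92 to 11.36 in heterozygous samples. The lowest average was in wildtype replicate 2, where 1 marker, Aldh1l1, read 6.49, against 10.65 to 12.34 in the other samples. Kcnj11 (Kir6.2, the pore of ATP-sensitive channels) differed by 0.05 (SE 0.32) on its brighter probe and by 0.21 (SE 0.26) on the other. Of the G-protein-gated Kir3 subunits, Kcnj3 differed by −0.63 (SE 0.68), Kcnj9 by 0.09 (SE 0.70), and Kcnj6 was well above background in 1 sample.

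Two-pore-domain channels carry background leak current. Kcnk1 (TWIK1) was the brightest of them and the steadiest, at 11.93, 11.77, 11.85 and 11.95 in wildtype and 11.91, 12.15, 11.96 and 12.09 in heterozygous samples, with marks in 5 samples and a difference of 0.15 (SE 0.26). Kcnk9 (TASK3) read 7.15, 7.14, 6.98 and 6.94 in wildtype and 7.32, 7.36, 7.95 and 7.40 in heterozygous samples. These groups did not overlap, close to the background, at a difference of 0.46 (SE 0.34, unadjusted p = 0.204). Kcnk3 (TASK1) differed by −0.22 (SE 0.45) and Kcnk2 (TREK1) by 0.47 (SE 0.78).

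For most channel genes, as for most genes on the array, the gap between the arrays of a genotype was larger than the genotype difference. A gap compares 1 array with 1 array, while the genotype difference compares means of 2 arrays. Gaps therefore tend to be the larger by construction, and no conclusion about the channel genes is drawn from these counts. The gap between the wildtype arrays was larger than the genotype difference in 22 of 30 genes, against 60.5% of all genes, and that between the heterozygous arrays in 19 of 30, against 57.5%. The gap, taken as the array of replicates 3 and 4 minus that of replicates 1 and 2, had the same sign in both genotypes for 22 of 30 genes, against 53.5% of all genes. It reached 1 log2 unit in both genotypes, in 1 direction, for Kcnc2, Kcnab3 and Kcnk2, which is 3 of 30 against 0.961% of all genes. Replicate numbers do not link mice of different genotypes in the labels, so this is a description of these 4 arrays.

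**Figure D4:**
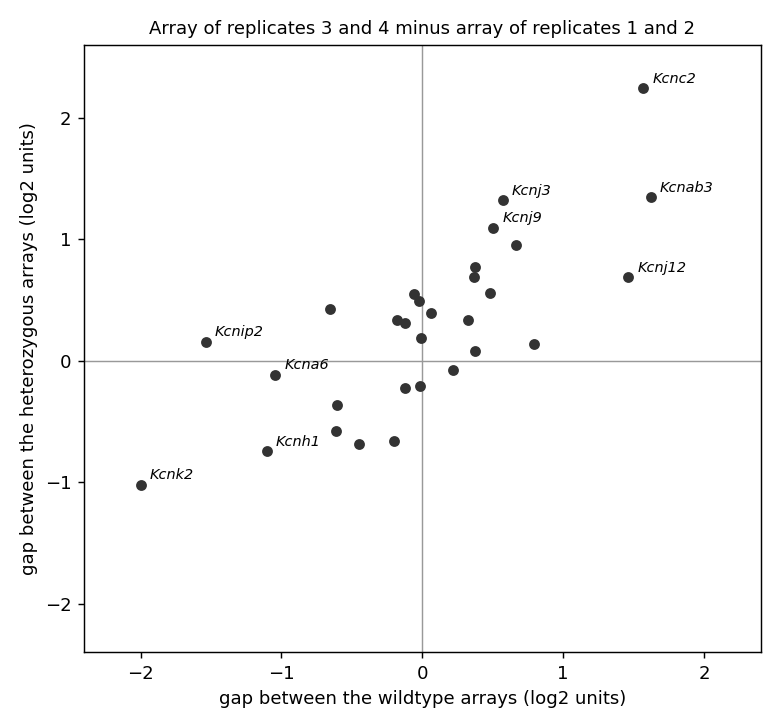
Gap between the arrays of each genotype (replicates 3 and 4 minus replicates 1 and 2, log2 units) for the 30 tested channel genes, wildtype on the horizontal and heterozygous on the vertical axis. Of the 30 genes, 22 have gaps of 1 sign, with Kcnc2 and Kcnab3 farthest up and to the right and Kcnk2 farthest down and to the left.

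Kcnc2, a Kv3 subunit of fast-spiking interneurons, had the widest range over the 8 samples of any tested probe of the channel genes. It read 9.43, 8.27, 9.83 and 11.01 in wildtype and 9.06, 8.17, 10.34 and 11.37 in heterozygous samples. Replicate 2 was the lowest and replicate 4 the highest in each genotype. Kcnab3 followed the same order, at 9.62, 8.89, 10.54 and 11.21 in wildtype and 9.51, 8.55, 10.06 and 10.68 in heterozygous samples. Kcnk2, a mechanosensitive and lipid-sensitive leak channel, went the other way between arrays, at 10.30, 10.45, 8.79 and 7.96 in wildtype and 10.07, 10.64, 9.18 and 9.49 in heterozygous samples. The brightest Kcnc1 probe also had gaps of 0.76 and 1.31, whereas its tested probe had −0.015 and −0.21.

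Markers of several cell types, projection neurons among them, also differed between the arrays, in both directions. Pvalb, the parvalbumin of fast-spiking interneurons and of other fast-firing neurons, read 11.49, 10.82, 14.15 and 14.80 in wildtype and 12.52, 11.54, 14.47 and 14.77 in heterozygous samples, in the same order as Kcnc2 and Kcnab3 within each genotype. The 10 interneuron markers together averaged 10.26 to 10.55 in wildtype and 10.29 to 10.59 in heterozygous samples, and 7 of them were above background in all 8. Pvalb did not stand for this list, of which 2 genes were higher on the arrays of replicates 3 and 4 in both genotypes, 3 were lower and 5 had gaps of opposite sign. Kit, for instance, had gaps of −1.83 and −0.71, and Sst −0.21 and 0.094. The 8 markers of choroid plexus and ependyma, of which 5 were above background in all 8 samples, averaged 7.43 to 11.41 in wildtype and 8.98 to 10.53 in heterozygous samples, with 5 of the 8 higher on the arrays of replicates 3 and 4 in both genotypes and gaps of 8.005 and 3.63 for Ttr. Of the 10 cortical neuron markers, 7 were above background in all 8, with averages of 9.23 to 10.99 and 8.81 to 9.59, and 7 of the 10 were lower on the arrays of replicates 3 and 4 in both genotypes. Tbr1 was highest in wildtype replicate 1, at 12.38. The 15 striatal projection neuron markers averaged 13.10 to 14.22 in wildtype and 14.07 to 14.40 in heterozygous samples, lowest in wildtype replicate 4. Of these markers, 10 were lower on the arrays of replicates 3 and 4 in both genotypes. Another 1 was higher and 4 had gaps of opposite sign. Of the 10 oligodendrocyte markers, 7 were higher on these arrays in both genotypes and 0 lower. Among the 10 astrocyte markers, 6 were higher and 2 lower. The part of these cells in the channel values was not tested.

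**Figure D5:**
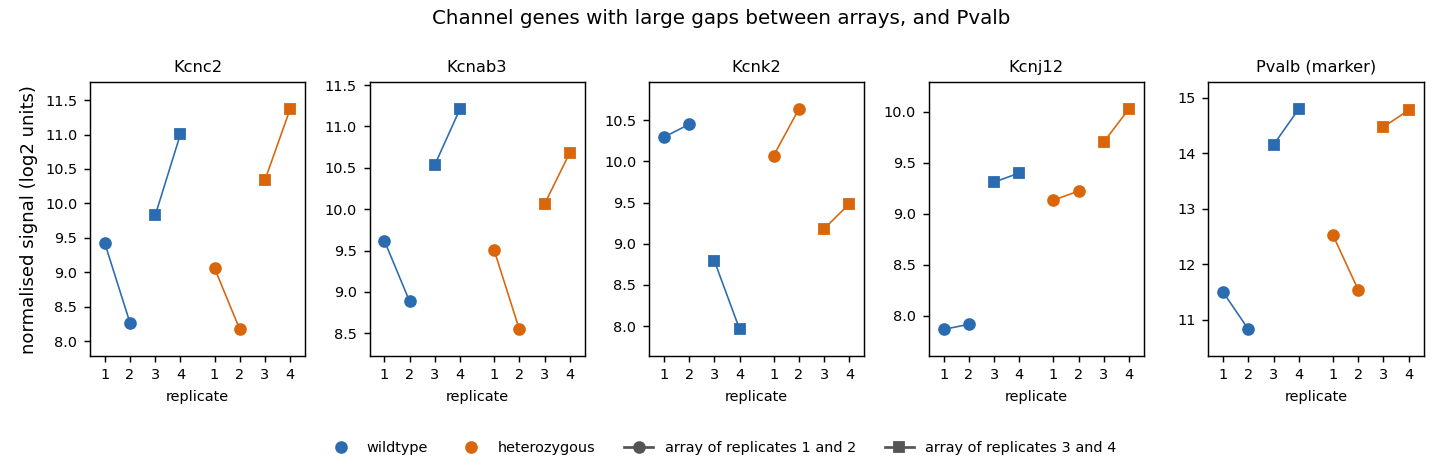
Normalised log2 signal in each sample of Kcnc2, Kcnab3, Kcnk2 and Kcnj12 and of the interneuron marker Pvalb (circles, arrays of replicates 1 and 2; squares, arrays of replicates 3 and 4; lines join the mice of 1 array). Kcnc2, Kcnab3 and Pvalb are lowest in replicate 2 and highest in replicate 4 of each genotype, and Kcnk2 is lower on the arrays of replicates 3 and 4.

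Between the genotypes, no marker of any cell type list passed the test. Outside the list of endothelial and mural cells, an unadjusted p below 0.05 was seen for Chat of interneurons and C1qa of microglia. They were higher in heterozygous samples, at 1.21 (unadjusted p = 0.0203) and 0.56 (unadjusted p = 0.0372). Each was 1 of 8 tested on its list, against 3.7% of all genes. By group means 4 interneuron markers were higher and 6 lower in heterozygous samples, and 6 microglia markers were higher and 4 lower. On the same lists, Slc5a7 differed by −0.37 and C1qb by 0.12. Of the 15 projection neuron markers, 11 read higher and 4 lower by group means. Their average was lowest in wildtype replicate 4, at 13.10, beside a highest wildtype average of 14.22. The 10 genes of the endothelial and mural list, 8 of them above background in all samples, averaged 9.26 to 9.30 in wildtype and 9.41 to 9.61 in heterozygous samples. By group means 6 were higher and 4 lower in heterozygous samples. Of the 9 tested, 3 higher and 1 lower had an unadjusted p below 0.05 (3.7% and 4.44% of all genes). The higher ones were Rgs5 of pericytes at 1.40 (unadjusted p = 0.00605, adjusted p = 0.450), Pdgfrb at 0.88 and Abcb1a at 0.78. The lower one was Cldn5 of endothelial tight junctions at −1.07 (unadjusted p = 0.00730, adjusted p = 0.476). Others of the list did not move alike, with Slco1a4 at 0.59, Pecam1 at −0.009 and Kcnj8 at −0.19. The part of these cells in the channel values was not tested.

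The other potassium channel genes on the array gave no call either. Of 56 such genes, 35 were tested, with 19 higher and 16 lower in heterozygous samples, a median of 0.03, and 8 whose groups did not overlap (17% of all genes). At an unadjusted p below 0.05 stood 1 in each direction, where 3.7% of all genes were so with a higher and 4.44% with a lower value in heterozygous samples. These were Kcnk6 (TWIK2, a leak channel), at 0.95 (SE 0.34, adjusted p = 0.525), and Kcnu1 (SLO3, known from sperm), at −0.56 (SE 0.25, adjusted p = 0.620). Next came Abcc9 (SUR2, the vascular and muscle partner of ATP-sensitive channels), at −0.67 (SE 0.30), and Kcnj16 (Kir5.1, the partner of Kir4.1 in glia), at −1.03 (SE 0.51), with adjusted p of 0.636 and 0.680.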

How the data were processed

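RNA of 8 mice was measured on 4 two-colour Agilent arrays. The deposited scanner files hold raw spot and background intensity and a processed intensity, read with Agilent Feature Extraction 11.0.1.1 per the file headers. The authors' deposited value table is a linear ratio, each median spot signal less its local background over the column's median, found by comparison with the scanner values (100% equal within 1e-06 relative). Its columns have a median of 1.

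Each sample's own channel was corrected with normexp (offset 50), loess and Aquantile in limma 3.58.1 (R 4.3.3). Outlier-flagged background readings took the channel's median background. Log2 values were taken of the deposited intensities, leaving out outlier-flagged spots and averaging spots of a probe. Probes well above background in at least 4 samples with a value in all 8 were tested (18393), with Benjamini-Hochberg adjustment at 0.05. The array correlation was 0.810. Each gene was read by its brightest tested probe. Fits were tested on simulated data in which every probe had the array correlation that the fit assumes. That cannot show how the p-values hold where the correlation differs between probes.

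Of the probes, 27234 were named by RefSeq (GRCm38.p6, names only) and 5949 by the file. The 42 genes, their classes, the lists and the rule for named genes (the brightest of each class, the 10 lowest unadjusted p, all probes of genes with several tested ones) were chosen with earlier results of these data known. Alternatives changed the signal, background, normalization, filters, fit and samples.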

Additional observations from a re-analysis of the deposited data

Results flagged for a closer look

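Within each genotype, 96 groups of 4 values were examined for a sample far from the others, over the 48 channel probes with values. In 5 the gap to the nearest sample, as a share of the group's range, passed Dixon's 95% critical value. With 4 independent values, chance does so in about 1 of 20 groups. Here the values of a group come in pairs from the same array, so that rate need not hold and the count cannot be set against it. For Kcnab1, wildtype replicate 4 was lowest at 12.39 against 13.42 to 13.55, a gap of 0.885 of the range. For Kcnip1, wildtype replicate 4 was highest at 9.05 against 8.39 to 8.48 (0.871). For the tested Kcnip4 probe, wildtype replicate 3 was lowest at 8.95 against 9.33 to 9.34 (0.973). For Kcnh3, wildtype replicate 4 was lowest at 12.09 against 13.11 to 13.30 (0.841). For Kcnk9, heterozygous replicate 3 was highest at 7.95 against 7.32 to 7.40 (0.876). None of these 5 readings had a marked spot.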

How the results depend on the processing

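In 31 other settings, 1 of them chosen after seeing the data, no tested channel gene passed. The 10 tested genes with the lowest p, Kcna1 and the middle Kcnma1 probe kept their direction wherever a value could be had. Kcna1 passed only with no array block (adjusted p = 0.0107), and ranged from 0.89 (processed signals) to 1.66. Without the array block 539 probes of all kinds passed. Leaving out 1 array, 22 passed without the first wildtype array (replicates 1 and 2), 23 without the second (3 and 4) and 6 without the second heterozygous array, against 0 otherwise, or 0 to 1 leaving out 1 sample. The median of the channel genes was −0.17 with Cy3 samples alone, −0.22 without the second heterozygous array, and −0.27 to 0.021 leaving out 1 sample, lowest without wildtype replicate 2 and −0.20 without heterozygous replicate 4. The brighter Brd2 probe turned to −0.032 with processed signals and −0.27 without the first wildtype array. The dimmer one stayed higher, at 1.11 in the value table, 0.57 with the spatial trend removed, 0.75 and 1.01 in Cy3 and Cy5 samples alone, 1.102 and 0.66 without the first and second wildtype array, and 0.97 and 0.78 without the first and second heterozygous array, each with an exact p above 0.05. With 1 dye or 1 array left out the design itself kept it there, since the smallest p was 0.333 and 0.0667. The causes were not tested. Samples with the same replicate number correlated at 0.0396 to 0.255 in their deviations, so the numbers were not taken to pair the mice. With a replicate block in place of the dye, 0 probes passed (lowest adjusted p = 0.275), and the median stayed −0.02. Signal over background and 2 arrays a genotype limit all values.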
